A study of Sus scrofa with 12 samples.

Results

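IFNG encodes interferon gamma, the type II interferon, and was measured here in pools of Day 9 pig embryos. It was taken as every probe whose symbol in the platform annotation is IFNG, which gave 1 probe among 18110 named probes, and 1 gene among 11908 named genes. The study set embryos of 2 mating strategies against each other. FE embryos came from primiparous sows inseminated at an oestrus that was stimulated during lactation. SE, or Skip-a-Heat, embryos came from primiparous sows that also showed oestrus during lactation but were inseminated at the oestrus after it, so both groups shared the stimulated lactational oestrus. Embryos were sexed by PCR, and 5 male and 5 female embryos of each of 3 sows per group were pooled apart, which made 12 pools. Each of 12 two-colour arrays carried an FE pool and an SE pool of the same sex, and each of 6 sets (male sets 1 to 3 and female sets 1 to 3) was run on a first array and on a dye-swap array.

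In most mammals interferon gamma is made by T cells and natural killer cells and acts on a receptor of the IFNGR1 and IFNGR2 chains, whose kinases JAK1 and JAK2 pass the signal on, so that IRF1 and many defence and antigen presentation genes are induced. In the pig, the trophectoderm of the elongating conceptus is itself a known source of interferon gamma and of the type I interferon delta. These interferons act on the uterine lining around the time of attachment, beside the oestrogens and the conceptus form of interleukin 1 beta (IL1B2) that the conceptus also releases.

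The deposited values are log ratios of FE and SE pools, read as log2, and the files and labels do not settle which pool is the numerator. By the labels FE carried Cy3 and SE carried Cy5 throughout, dye-swap arrays included, whereas the first and swap arrays of a set ran against each other (r from -0.77 to -0.15 over all probes). Every signed value below therefore has the sign of the first arrays, with swap arrays turned, and no statement says whether IFNG was higher in FE or in SE. Array medians lay within 0.0108 of 0. Male sets 1 and 2 lay on slide 1, female sets 1 and 2 on slide 2, and male set 3 and female set 3 on slide 3, so sex and slide are largely confounded. Nothing in the labels says that a set number marks the same sows in both sexes, but each sow of the 3 per group gave both a male and a female pool, so the 6 sets are not fully independent and p-values measure only the spread between them. Ratios say nothing of levels, so the tissue could not be checked by the presence of its markers, and fewer cells of a type cannot be told apart from less RNA per cell in pooled embryos.

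IFNG differed widely from set to set, and its ratio on the 2 arrays of a set was close. In male set 1 IFNG had a ratio of 0.83 on the first array and 0.48 on the turned swap array. In male set 2 the ratios were -0.98 and -1.52, and in male set 3 they were -4.14 and -4.73. Female set 1 gave -1.31 and -2.17, female set 2 gave -0.77 and -0.78, and female set 3 gave -2.76 and -3.00. The sign was thus the same on both arrays of each set, positive in male set 1 alone and negative in the other 5 sets.

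**Figure D1:**
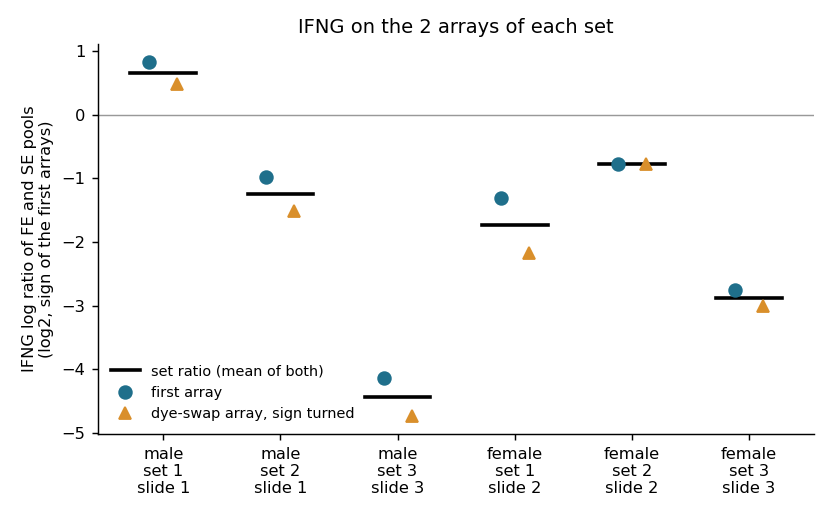
IFNG log2 ratio (vertical axis) on the first array (circles) and the sign-turned dye-swap array (triangles) of each biological set (horizontal axis, male sets left of female sets), with the set ratio as a bar. Both arrays of a set lie close together, while set ratios span 0.66 in male set 1 to -4.44 in male set 3.

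The set ratios were 0.66, -1.25 and -4.44 in male sets 1 to 3, and -1.74, -0.78 and -2.88 in female sets 1 to 3. As folds between the 2 pools of a set, these are 1.58, 2.37 and 21.6 for male sets 1 to 3, against 3.33, 1.71 and 7.37 for female sets 1 to 3. Between 95.8% and 99.5% of all probes were within 2-fold in a set. By size of ratio IFNG was the first of the 18110 named probes in male set 3, the 7th in female set 3 and the 31st in female set 1. It stood 100th in male set 2, 310th in male set 1 and 783rd in female set 2. These ratios were what IFNG was chosen by, so they are given as a description with no test.

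Over the 6 sets the mean ratio was -1.74 ± 1.76 (SD, n = 6), the median -1.49 and the range 5.09 on the log2 scale, or 34.1-fold. Male sets averaged -1.68 ± 2.57 and female sets -1.80 ± 1.05 (SD, n = 3 each), a difference, male minus female, of 0.12, which is small beside either SD. The ranges of the sexes overlapped, since the female sets all lay between the highest and the lowest male set. By slide, the mean was -0.30 on slide 1, -1.26 on slide 2 and -3.66 on slide 3. Slide 3 held 1 set of each sex, and there the male ratio minus the female ratio was -1.55. Without male set 3 the mean over sets was -1.05 and the male mean -0.30, and without both sets of slide 3 the mean over sets was -0.78. The part of slide in the IFNG ratio was not tested.

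The spread between sets was far larger than the difference between arrays of the same pools. The deviation of an array from its set ratio was 0.0049 to 0.43, with a root mean square of 0.26, so that the SD over sets was 6.88 times as large; over all named probes the median SD was 0.20 and the median root mean square 0.15. IFNG ratios on the first arrays and the turned swap arrays had r = 0.99 over the 6 sets. The first array read above the turned swap array in 6 of 6 sets, by 0.22 on each side of the set ratio on average, and 14.1% of named probes had a mean array difference at least that large. By SD over sets IFNG was the fourth of all named genes, after IL1B with 2.69, IL1B2 with 2.22 and GRID1 with 2.00, and before HSD11B2 with 1.70. By size of mean ratio it was the second, after NMU with -2.15, and 95% of named genes had a mean within 0.29 of 0.

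The receptor and signalling genes of interferon gamma had mean ratios between -0.19 and 0.37. Of the 14 listed genes, 8 were measured, with 15 probes; the others, IFNGR2 among them, were not analysed here. IFNGR1, the ligand-binding chain of the receptor, had ratios of 0.12, -0.21 and 0.05 in male sets 1 to 3 and -0.02, 0.14 and -0.18 in female sets 1 to 3, so all sets were near 0. The mean ratios over sets were -0.01 ± 0.39 for the kinase JAK1 and -0.02 ± 0.08 for JAK2 (SD, n = 6). JAK2 was averaged over 3 probes that differed. Their means ran from -0.07 to 0.07 and their r with IFNG from -0.48 to 0.69, so the small SD is that of the average. TYK2, a kinase of the type I interferon receptor, was the only gene of the list above 0 in 6 of 6 sets, at 0.14, 0.70 and 0.37 in male sets and 0.03, 0.72 and 0.28 in female sets; its mean of 0.37 did not pass limma's test (adjusted p = 0.779). The largest spread was that of PTPN11, a tyrosine phosphatase, which read -0.40, -0.88 and 0.00 in male sets and 1.14, -0.17 and 0.52 in female sets. PTPN2, a phosphatase that removes phosphate from JAK1, ranged from -0.78 to 0.51. Over the list the median r with IFNG was -0.12, against 0.10 over all named genes. An r of 0.8 or more was found for 0 of the 8 genes and for 3.97% of all named genes (473 of 11907), so at this list size the 0 says nothing particular.

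**Figure D2:**
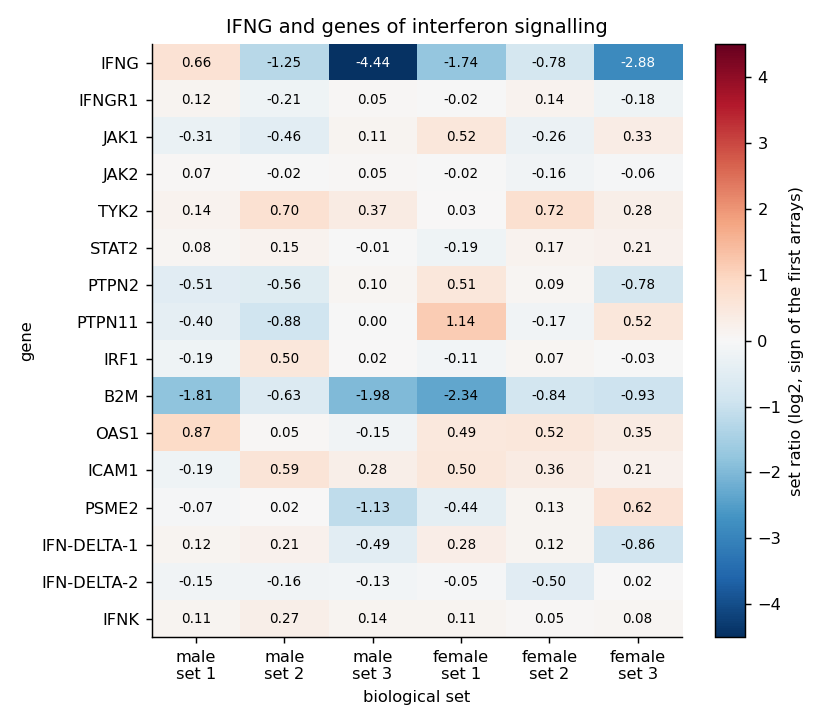
Set ratios (log2, colour scale and printed numbers) of IFNG and genes of interferon signalling (rows) in the 3 male and 3 female sets (columns). IFNG stands at -4.44 in male set 3, where IFNGR1 is at 0.05, JAK2 (mean of 3 probes) at 0.05 and IRF1 at 0.02. B2M is negative in 6 of 6 sets.

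Genes that interferon gamma induces in other cells were measured for 39 of 49 listed targets, with 46 probes. Their median SD over sets was 0.14, against 0.18 over all named genes, and 4 of the 39 (10.3%) had an SD of at least 0.5, as did 10.4% of all named genes. IRF1, the early transcription factor of the response, had ratios of -0.19, 0.50 and 0.02 in male sets and -0.11, 0.07 and -0.03 in female sets. The median of the target genes in a set lay between -0.07 and 0.04 in all 6 sets, male set 3 included, at -0.06. The gene of the list with the largest mean ratio by size was B2M, the light chain of MHC class I, at -1.81, -0.63 and -1.98 in male sets and -2.34, -0.84 and -0.93 in female sets. B2M was negative in 6 of 6 sets, with a mean of -1.42 (95% confidence interval -2.05 to -0.79), and did not pass limma's test over all probes (adjusted p = 0.575). Its order over the sets was not that of IFNG, with r = 0.15. The proteasome activator subunit PSME2 read -0.07, 0.02 and -1.13 in male sets and -0.44, 0.13 and 0.62 in female sets. The antiviral synthetase OAS1 had a mean of 0.36 and the adhesion molecule ICAM1 a mean of 0.29 (adjusted p = 0.823 and 0.818 by limma). Of the 39 targets 4 had r of 0.8 or more with IFNG (IRF7, CCL5, OAS1 and MX1), or 10.3% beside the 3.97% of all named genes, all with an SD over sets below 0.5. The 3 probes of CCL5 differed, with r from -0.22 to 0.94.

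The listed type I interferons had smaller ratios than IFNG. Of 28 listed type I and type III interferons and receptors, 8 were measured, each with 1 probe, and none had an SD over sets of 0.5 or more. IFN-DELTA-1, of the interferon delta family that the pig conceptus makes, had 0.12, 0.21 and -0.49 in male sets and 0.28, 0.12 and -0.86 in female sets, so its lowest ratios were those of both sets on slide 3; its r with IFNG was 0.69, or -0.81 without them. IFN-DELTA-2 ranged from -0.50 to 0.02, IFN-OMEGA-3 from -0.15 to 0.49 and IFN-ALPHA-1 from -0.29 to 0.10. IFNK, an interferon known from skin keratinocytes in humans, was above 0 in 6 of 6 sets with a mean of 0.13 ± 0.08 (SD, n = 6; adjusted p = 0.829 by limma). Outside the list, 6 more type I interferon genes were found after values were seen, with SDs over sets from 0.04 to 0.42, the highest for IFN-ALPHA-16, which ranged from -0.57 to 0.60. Probes of such near-identical genes may bind more than 1 of them, so a ratio may not belong to the named gene alone.

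Genes that lie near IFNG had mean ratios close to 0. In RefSeq's order of genes on the pig assembly Sscrofa11.1, used here for neighbours alone, DYRK2 lies on one side of IFNG, and IL26, IL22 and MDM1 follow on the other. IL26 and IL22, cytokines of the interleukin 10 family, had ratios from -0.17 to 0.36 and from -0.14 to 0.17 over the 6 sets. MDM2, which encodes the ubiquitin ligase of p53 and lies 7 genes away, ran opposite to IFNG (r = -0.93) over a smaller range, from -0.40 in male set 1 to 0.85 in male set 3. NUP107, a nuclear pore component 5 genes away, ranged from -0.38 to 0.76 with r = -0.75, or 0.43 without both sets of slide 3.

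Inducers of IFNG and markers of the lymphocytes that make it in the adult were measured as well. GATA3, a T helper factor that trophectoderm also expresses, had the largest mean of the 30 measured inducers and regulators. It read 0.26, 1.26 and 0.12 in male sets and 1.18, 1.55 and -0.42 in female sets, with a mean of 0.66 (adjusted p = 0.854 by limma) and r = 0.42 with IFNG, or -0.79 without both sets of slide 3. IL18, a cytokine that induces interferon gamma in lymphocytes, ranged from -0.06 to 0.72 with r = -0.61. Its r was -0.06 without male set 3, -0.93 without female set 3 and -0.79 without both sets of slide 3. Of 27 markers of T cells and natural killer cells, 21 were measured, none had an SD over sets of 0.5 or more, and their median lay between -0.05 and 0.09 in every set. NKG7, a granule protein of natural killer cells, had r = 0.87 with IFNG, or 0.61 without both sets of slide 3, at 0.86, 0.16 and -0.40 in male sets and 0.51, 0.09 and -0.04 in female sets. Among the 21 it alone had r of 0.8 or more, or 4.76% beside 3.97% of all named genes. The median r of the list was 0.27. The part of NKG7-bearing cells in the IFNG ratio was not tested. CD3D, a T cell receptor subunit, ranged from -0.49 to 0.10 and the perforin gene PRF1 from -0.07 to 0.29. LAT, an adaptor of T cell signalling, was above 0 in 6 of 6 sets with a mean of 0.32, and the lower of its 2 adjusted p-values was 0.458.

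Among all 12 gene lists used here, which share a few genes and hold 264 probes of 200 genes other than IFNG, limma called 0 probes for a mean ratio other than 0 over both sexes at an adjusted p under 0.05, where 0.00457% of all 43769 probes were called. At an unadjusted p under 0.05, 14 of the 264 probes were positive, where 3.48% of all probes were, and 3 were negative, where 2.45% were. For male minus female, 0 of the 264 probes were called, as was 0% of all probes, with 5 at an unadjusted p under 0.05, where 1.87% of all probes were. The spread of the 6 sets was also set against that of paired arrays within sets, by a moderated F over all probes, which does not compare FE with SE. That test called 91 of the 264 probes, where 37.7% of all probes were called. With slide as a block, 0 of the 264 probes were called over both sexes and 0 for male minus female, as were 0 of all 43769 probes in either contrast. Slides 1 and 2 each held sets of a single sex, so male minus female there rested on male set 3 and female set 3 alone. With so few sets left to measure the spread, that fit could call little, and nothing is concluded from it.

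The share called between sets differed among the lists. It was 66.7% for the receptor and signalling genes (10 of 15 probes), 57.1% for neighbours of IFNG (4 of 7) and 37.5% for conceptus cytokine, steroid and prostaglandin genes (18 of 48). It was 75% for trophectoderm markers (21 of 28), 56.2% for epiblast markers (9 of 16) and 50% for hypoblast markers (7 of 14). Target genes had 23.9% (11 of 46), type I and type III interferons 25% (2 of 8), inducers 13.9% (5 of 36), T cell and natural killer markers 7.69% (2 of 26), uterine markers 16.7% (2 of 12) and blood cell markers 7.14% (1 of 14). The target probes called included B2M, OAS1, ICAM1, PSME2 and IRF7, and IFNGR1 was not called among the receptor and signalling genes (adjusted p = 0.162 by limma's moderated F).

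**Figure D3:**
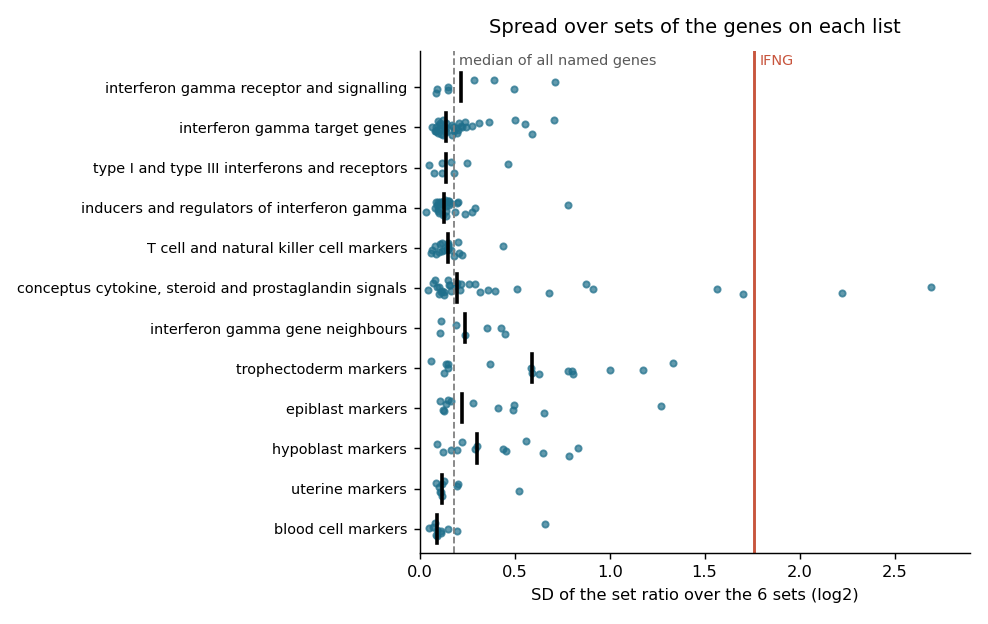
SD of the set ratio over the 6 sets (horizontal axis, log2) of each measured gene (points) on the 12 lists (rows), with the list median as a black bar, the median of all named genes (0.18) dashed and IFNG (1.76) as a red line. Only IL1B and IL1B2 of the listed genes lie to the right of IFNG, and the interferon target genes centre on 0.14.

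Likeness to IFNG was described by Pearson's r over the 6 set ratios, for all named genes and without a p, since IFNG was chosen with its ratios known and the sets share slides, sows and the labelling of each pool. Of 1238 genes with an SD over sets of at least 0.5, 20 had an r of 0.9 or more and 4 an r of -0.9 or less. The median r of those genes was 0.36, so genes with wide spread lay, on balance, on the side of IFNG. The 10 most alike were ITPKA, HSD11B2, ID1, TFPI2, RPL17, GDPD2, HSD17B1, RPL10A, STAG3 and TMC7, with r from 0.98 to 0.92, and the 11th gene also had 0.92.

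ITPKA, a kinase of inositol trisphosphate, had 0.77, 0.13 and -1.94 in male sets and -0.47, 0.11 and -0.69 in female sets, at r = 0.98. HSD11B2, which turns cortisol into cortisone, followed IFNG at a similar size, with 1.88, -0.80 and -2.83 in male sets and -0.73, 0.52 and -2.04 in female sets. HSD17B1, which makes oestradiol from oestrone, had 1.01, -0.97 and -3.09 in male sets and 0.10, 0.62 and -1.74 in female sets. All 3 were positive in male set 1 and lowest in male set 3, as IFNG was; unlike IFNG, they were also positive in female set 2. ID1, an inhibitor of helix-loop-helix factors, ranged from -0.95 to 0.65, and TFPI2, an inhibitor of serine proteases, from -0.89 to 0.42. RPL17 and RPL10A encode proteins of the large ribosomal subunit and ranged from -1.25 to 0.25 and from -1.19 to 0.16. STAG3, a subunit of meiotic cohesin, had -1.79 in male set 3 against -0.38 to 0.71 in the other 5 sets.

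**Figure D4:**
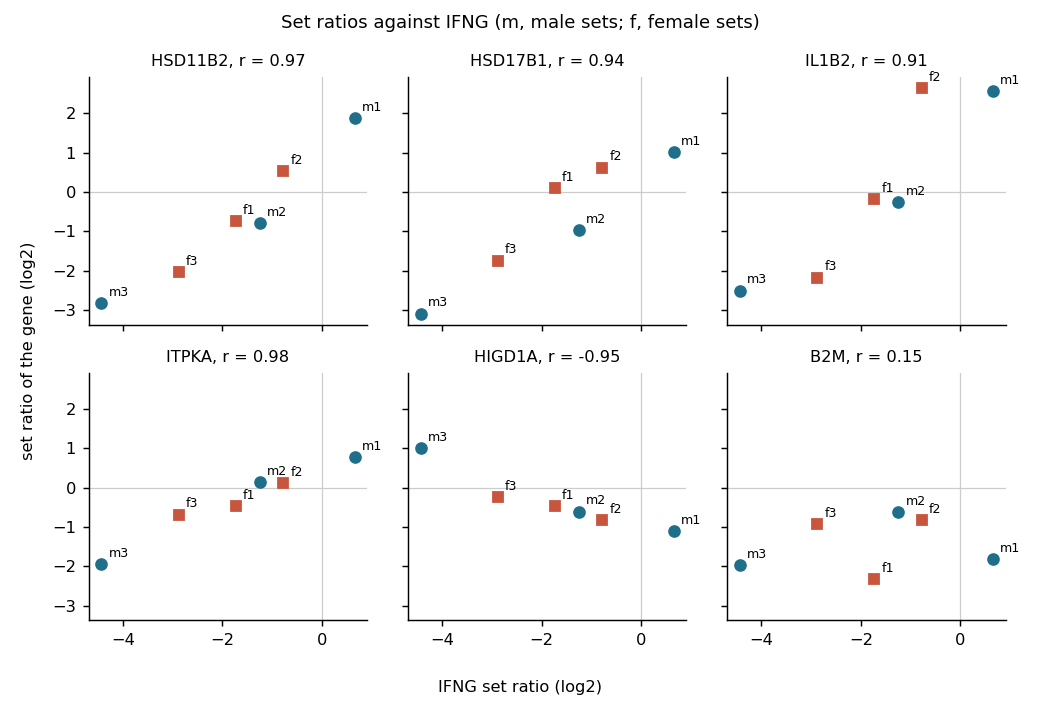
Set ratio (vertical axis, log2) of 6 genes against that of IFNG (horizontal axis, log2), with circles for male sets (m1 to m3) and squares for female sets (f1 to f3). HSD11B2, HSD17B1, IL1B2 and ITPKA climb with IFNG, HIGD1A runs the other way and B2M has r = 0.15.

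Both interleukin 1 beta genes also ran with IFNG, IL1B at r = 0.90 and IL1B2 at r = 0.91. IL1B2 had 2.58, -0.26 and -2.51 in male sets and -0.19, 2.64 and -2.18 in female sets, and IL1B had 3.95, -0.34 and -2.66 in male sets and -1.53, 2.73 and -1.93 in female sets. The means of both genes were close to 0 (0.04 for IL1B and 0.01 for IL1B2), whereas that of IFNG was -1.74, so the genes shared the order of sets more than the level of the ratio. The probes of IL1B and IL1B2 may bind both transcripts. CYP17A1, which makes androgens from progestagens, was less alike, at r = 0.71, or -0.39 without both sets of slide 3, and was lowest in female set 3 (-2.05) with -1.24 in male set 3. Of the 31 measured conceptus signal genes, 4 had both an r of 0.8 or more and an SD of at least 0.5 (HSD11B2, HSD17B1, IL1B and IL1B2). Over all named genes but IFNG, these 4 included, 92 of 11907 did. The list was chosen with earlier results of these data known, so the 2 shares only describe.

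Markers of the embryo's own cell types ran with IFNG for some genes and against it for others. Of the 15 measured trophectoderm markers 3 met the same marks, all keratins of simple epithelia. KRT19 had 0.53, 0.13 and -2.55 in male sets and 0.41, 0.98 and -1.19 in female sets (r = 0.90), and KRT8 had 0.47, 0.50 and -1.73 in male sets and 0.44, 1.66 and -0.77 in female sets (r = 0.82). KRT18 read -1.94 in male set 3 against -0.20 to 0.13 in the other sets, and its r was 0.81, or 0.67 without male set 3. The median of the trophectoderm list was 0.13, 0.12 and -0.03 in male sets and 0.15, 0.13 and -0.23 in female sets, so it was lowest in the same 2 sets as IFNG, by a far smaller amount. Of the 12 epiblast markers measured, DPPA5 met the marks (r = 0.89), at 0.75, -0.21 and -2.47 in male sets and -0.33, 1.21 and -0.39 in female sets. PRDM14 also had a high r, at 0.94, but with an SD over sets of 0.10. Some other epiblast markers ran the other way, with r = -0.65 for ZFP42, -0.63 for SOX2 (SD 0.12) and -0.46 for LIN28B. Without both sets of slide 3 these were 0.28, -0.39 and -0.04. FGF4, also on the epiblast list, had the lowest r of the 12, at -0.87 with an SD over sets of 0.16. Of the 12, 2 had r of 0.8 or more, and the median r of that list was -0.08. None of the 13 hypoblast, 10 uterine or 11 blood cell markers met the marks. The uterine list had a median r of 0.51, but its median ratio was -0.15 in male set 3 and 0.01 in female set 3. WNT7A had r = 0.77, or 0.07 without both sets of slide 3. STC1 had r = -0.92 with ratios from -0.21 to 0.08 alone, and r = -0.20 on the dye-swap arrays alone. Within the blood list AIF1, a macrophage marker, ranged from -0.66 to 0.89 with r = -0.02. The part of cell makeup, or of uterine RNA, in the IFNG ratio was not tested.

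The 10 genes most opposite to IFNG were HIGD1A, BRIX1, PDHX, CDO1, NOL11, BBX, PPP2R5A, EXOSC3, ZRANB2 and HPRT1, with r from -0.95 to -0.87. HIGD1A, a mitochondrial inner membrane protein, had -1.11, -0.61 and 1.00 in male sets and -0.48, -0.82 and -0.23 in female sets, the reverse order of IFNG in all 6 sets. CDO1, which breaks down cysteine, had -1.46, -0.38 and 0.61 in male sets and 0.04, -1.47 and 0.10 in female sets. BRIX1 and NOL11 act in ribosome assembly and ranged from -0.39 to 1.01 and from -0.59 to 0.80.

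How far these likenesses rest on slide 3 was seen by leaving out both of its sets, an alternative added after the data were seen. Over the 4 sets left, r was 0.97 for ID1, 0.96 for HSD11B2, 0.95 for ITPKA, 0.92 for IL1B and -0.99 for HIGD1A. It was 0.79 for IL1B2, 0.68 for HSD17B1, 0.64 for DPPA5, 0.27 for KRT19, 0.27 for KRT18 and 0.01 for KRT8. Among the 10 opposite genes it ranged from -0.99 to -0.01, the last for ZRANB2. The 3 keratins thus did not run with IFNG over those 4 sets. Leaving out male sets 1 and 3, the 2 farthest from the IFNG median, gave 0.94 for KRT19, 0.96 for KRT8 and 0.46 for KRT18. It gave 0.96 for GATA3, 0.99 for WNT7A, 0.93 for CYP17A1 and 0.25 for NKG7. Without both sets of slide 3 these 4 genes had -0.79, 0.07, -0.39 and 0.61. For such genes r over 4 sets depended on which sets were left out. The membership of the 10 most alike also moved. When any 1 set was left out, between 0 and 8 of the 10 stayed among the 10 most alike, with 0 without male set 1, 2 without female set 3 and 3 without male set 3, while their own r stayed at 0.82 or above.

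**Figure D5:**
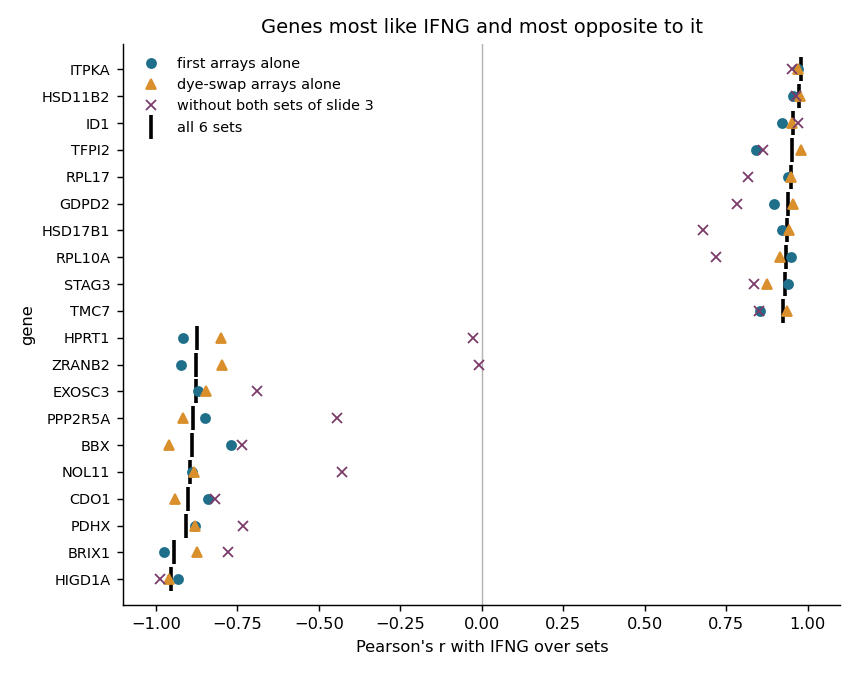
Pearson's r with IFNG over sets (horizontal axis) of the 10 genes most like IFNG and the 10 most opposite to it (rows), over all 6 sets (bars), on the first arrays alone (circles), on the dye-swap arrays alone (triangles) and without both sets of slide 3 (crosses). The crosses of HSD11B2, ITPKA, ID1 and HIGD1A stay near the bars, and those of HPRT1 and ZRANB2 move to near 0.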

How the data were processed

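The authors deposited 1 table of normalized log ratios per probe for the 12 arrays, taken here as log2 because values spanned -4.99 to 5.97. How they corrected background and normalized, and which pool they divided by, is not given in the sources used here. Per the labels' protocols, RNA was amplified to antisense RNA and labelled with Cy3 and Cy5. Of 43794 probes, 25 with a missing value were left out. Probes were named through the platform annotation, with 354 symbols updated through RefSeq, and 25659 stayed unnamed. Swap arrays were sign-turned and averaged with the first array of their set, and probes of a gene were averaged. The pattern of opposed arrays set the relative sign. First and swap arrays had r = -0.73 over all probes and sets, after each probe's mean over the 6 sets was taken off either kind. Precision is limited by how few arrays there are.

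Tests used limma 3.58.1 in R 4.3.3 (lmFit, eBayes, Benjamini-Hochberg over 43769 probes, threshold 0.05), fitted to the 6 set ratios with 1 mean per sex, or to the 12 turned arrays with a term for array role for the F over sets. The fits were tested on simulated data. IFNG, the gene lists and the likeness measure were chosen with earlier results of these data known. Named genes were the 10 most alike and 10 most opposite genes with an SD of at least 0.5, and from each of 12 lists the 3 with the largest mean and the 2 with the largest SD, plus IFNGR1, JAK1, JAK2, IRF1, IL1B, IL1B2, IL22 and IL26. IRF7, CCL5, MX1, PRDM14, FGF4, GRID1, NMU, DYRK2, MDM1, SLA-1, FDXR and IFN-ALPHA-16 were named outside that rule, after values were seen. Same-numbered male and female sets correlated at 0.05, 0.41 and 0.26 in their deviations from the sex means. Differently numbered sets correlated at -0.35 to 0.06. Set numbers were not taken as pairs in the main fit because the labels do not state a pairing, and these correlations do not settle it. Alternatives were single array roles, array scaling, blocks, other measures of likeness and leaving out each set.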

Additional observations from a re-analysis of the deposited data

Results flagged for a closer look

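Of the 72 named genes screened over the 6 sets, 4 had a set whose gap to the nearest other set passed Dixon's 95% critical value as a share of the whole range, where chance alone would mark about 1 in 20. KRT18 read -1.94 in male set 3, with a gap of 0.840 of its range. ZFP42, an epiblast marker, read 1.15 in male set 3 with a gap of 0.713, and MDM2 read 0.846 there with a gap of 0.630. IFN-DELTA-2 read -0.498 in female set 2, with a gap of 0.653. IFNG was not among them, since female set 3 lay between male set 3 and the rest.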

How the results depend on the processing

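With swap arrays kept at their deposited sign, the mean IFNG ratio was 0.22, the female mean 0.19 and the SD over sets 0.15. On first arrays alone, swap arrays alone or scaled arrays, the IFNG mean, sex means and SD stayed within the spread between sets. The median r of the 10 genes most like IFNG was 0.96 on deviations from each sex mean, 0.84 without both sets of slide 3 and 0.92 to 0.96 with 1 set left out; the 10 most alike with no minimum SD had 0.99. The male minus female IFNG ratio was -1.04 without male set 1 and positive without male set 3. At an unadjusted p, 17 list probes passed over both sexes and 5 for male minus female. First arrays alone called 2 list probes, of SLA-1 (-0.83) and FDXR (-0.68), and 155 of all probes. First arrays alone do not balance the dyes. Averaged with the turned swap arrays, that FDXR probe had a mean of -0.07, and the probes of SLA-1 had means from -0.20 to -0.04. The 12 arrays with the set as a random block called 2, of B2M (-1.42) and LAT (0.36), and 323 of all probes. That fit entered both arrays of the same pools, under a consensus correlation of 0.23 shared by all probes. It does not measure the spread between the 6 sets alone. For B2M the SD over sets was 0.71, and the root mean square deviation of an array from its set ratio was 0.25. The cause of the calls was not tested. With the set number as a random replicate block, 0 list probes were called, as in the fit without it, and 0 of all probes, against 2 without it (consensus correlation 0.12); this paired analysis lost both. IFNG had 1 probe, so no fit by probe was run. Depth is unknown for arrays, and a probe near background cannot be recognised from ratios alone, so a flat ratio of a receptor or target gene may hold no signal.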
